A study of Mus musculus with 3 samples.

Results

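Spermatogonia were picked out, barcode by barcode, from single-cell RNA-seq of mouse testis in wild-type (WT), knock-out (KO) and knock-in (KI) animals, and numbered 98 of the 9484 barcodes kept in the 3 libraries. A barcode, which tags the transcripts of 1 droplet, was kept with at least 2000 unique molecular identifiers (UMIs, each standing for 1 captured transcript), more than 500 genes and under 10% mitochondrial UMIs. A kept barcode was called a spermatogonium when it held at least 2 UMIs of the germ cell gene Dazl, and at least 4 UMIs and 0.03% of its UMIs in Dmrt1, Uchl1, Crabp1, Stra8, Kit and Zbtb16 together. The Sertoli cell genes Cst9, Rhox8 and Clu had to stay under 0.05% of UMIs and the spermatid genes Prm1, Prm2, Tnp1 and Tnp2 under 1%. WT gave 27 spermatogonia of 4583 kept barcodes, KO 44 of 3576 and KI 27 of 1325.

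All mice were C57BL/6. GRTH, encoded by Ddx25, is a testis RNA helicase, and KO mice lacked it in every tissue. KI mice carried a human GRTH gene with an arginine-to-histidine change, and their protein lacked the phosphorylated form. No agent was given to any group, and no promoter or Cre driver was named. The labels gave each library as 1 mouse of 8 weeks with 7000 cells loaded, whereas the methods described cells of pooled mice and a wider range of ages, so each library may hold more than 1 animal. Every genotype had 1 library. No difference between genotypes therefore has a replicate, no test across samples was possible, and cells of 1 library were not treated as replicates.

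Spermatogonia lie on the basement membrane of the seminiferous tubule and are the only dividing male germ cells before meiosis. Stem and progenitor cells marked by Gfra1, Id4, Zbtb16 and Lin28a turn, under retinoic acid, into differentiating cells that carry the receptor Kit, and then into preleptotene cells that switch on Stra8 and start the meiotic programme. Dazl encodes an RNA-binding protein, Dmrt1 a transcription factor that holds back meiosis, Uchl1 a deubiquitinase and Crabp1 a protein that binds retinoic acid. Early prophase cells carry the proteins of the synaptonemal complex, and in pachytene the sex chromosomes fall silent.

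Stra8, the gene by which spermatogonia of the 3 libraries differed most within the gate, is known as a retinoic acid target, so its promoter is shown. The sequence runs from 250 bases before to 50 bases after the start of Stra8, at chr6:34920698-34920997 on the + strand of GRCm38.p6 (RefSeq). Capitals mark AGGTCA, the core letters of nuclear receptor sites, searched on both strands.

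Stra8 promoter: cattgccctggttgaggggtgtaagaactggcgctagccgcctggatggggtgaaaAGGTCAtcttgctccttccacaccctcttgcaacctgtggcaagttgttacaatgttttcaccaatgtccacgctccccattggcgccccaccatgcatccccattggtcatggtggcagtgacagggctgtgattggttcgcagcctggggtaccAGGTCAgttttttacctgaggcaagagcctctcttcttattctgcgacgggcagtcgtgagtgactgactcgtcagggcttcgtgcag

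Both matches were on the + strand, starting 194 and 38 bases before the start. AGGTCA was found in 16.3% of all 32851 promoter windows of this length, and 1.79% of windows held 2 or more. The window of Rec8, another target of retinoic acid, was searched the same way and held 0 matches. A match is a description of letters and not a bound site, and no match says only that these letters are not in the window.

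The cells were selected on the measured UMIs of these genes, and those values are given first, as a description. The 6 marker genes together had a median of 9 UMIs per WT spermatogonium (lowest 4, highest 34), 11 per KO cell (5 to 64) and 30 per KI cell (8 to 96). As a share of a cell's UMIs the medians were 0.128%, 0.132% and 0.126%, so the deeper KI cells had more marker UMIs at about the same share. Dazl had a median of 9 UMIs per cell in WT (2 to 29), 10 in KO (2 to 39) and 24 in KI (8 to 76). Just inside the gate lay 1 WT cell with 4 marker UMIs, and just outside it 4 WT and 2 KO cells that failed by holding 3. The share limit alone left out 2 WT, 4 KO and 7 KI cells, the highest at 0.0193% against a lowest member of 0.0382%. The Sertoli limit alone left out 2 WT and 2 KO cells, and the spermatid limit alone 3 WT cells.

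Depth differed between libraries and has to be read beside every count of cells. Spermatogonia held 235854 UMIs in all in WT, 519872 in KO and 656847 in KI. A WT spermatogonium held 7372 UMIs at the median (3022 to 26475), a KO cell 8956 (2151 to 34852) and a KI cell 19260 (6346 to 88921), with medians of 3627, 4069 and 5921 genes. Mitochondrial UMIs were 4.12%, 4.94% and 5.66% of a cell's UMIs at the median. Levels below are UMIs summed over the spermatogonia of a library and scaled to 1000000 UMIs (CPM). Since 1 UMI stands for 1 transcript whatever its length, levels were not divided by length. Intervals are exact 95% intervals (Poisson for sums, Clopper-Pearson for shares) and cover counting error only. Where 3 values are given without names, they belong to WT, KO and KI in that order.

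Spermatogonia were 0.589% of kept barcodes in WT (0.389 to 0.856), 1.23% in KO (0.895 to 1.65) and 2.04% in KI (1.35 to 2.95). These shares are set by every other cell type in the suspension. Against the next germ cells the differences were smaller. Early prophase cells, gated by at least 10 UMIs and 0.25% in Sycp3, Sycp1, Hormad1, Meiob and Dmc1 with at most 1 Piwil1 UMI, numbered 62 (WT), 81 (KO) and 44 (KI). Cells that met both sets of conditions, 3 in WT, 17 in KO and 7 in KI, were counted as spermatogonia. The shares of both types, and their order, depend on that choice. Spermatogonia made up 30.3% of both types together in WT (21.03 to 41.0), 35.2% in KO (26.9 to 44.2) and 38.0% in KI (26.8 to 50.3), and these intervals overlapped. Pachytene cells, gated by at least 5 UMIs and 0.02% of Piwil1, numbered 314, 450 and 203. Set against pachytene cells, spermatogonia were 7.92% in WT (5.28 to 11.3), 8.91% in KO (6.55 to 11.8) and 11.7% in KI (7.88 to 16.6).

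Markers that the gate did not use were checked next. Sohlh1, a transcription factor of spermatogonia, had 33.9 CPM in WT spermatogonia, 53.9 in KO and 57.9 in KI and no UMI in early prophase cells of any library. Sall4, a stem and progenitor factor, had 25.4, 15.4 and 21.3 CPM against no UMI in early prophase cells. Cells that pass the gate are kept out of the early prophase class, so both contrasts are in part set by the gate. The 15 markers outside the gate, led by the germ cell helicase gene Ddx4, summed to 1030.3, 964 and 1017 CPM, against 821, 738 and 709 CPM in early prophase and 1081, 1179 and 1174 CPM in pachytene cells. As a sum they therefore did not set spermatogonia above pachytene cells. Of the 98 cells 27 also met the early prophase conditions, so the name spermatogonia here takes in cells on the border of meiosis. Leydig, macrophage, stromal and endothelial markers summed to at most 13.5 CPM each in any library, and no haemoglobin UMI was seen. The 11 Sertoli markers summed to 114, 202 and 163 CPM, led by the lysosomal protease gene Ctsl (67.8, 92.3 and 103 CPM). Cst9, Rhox8 and Clu are among the 11 and were capped by the rule, so this sum is a description. The defining Sertoli gene Sox9 had no UMI in any library, and Wt1 and Gata4 had at most 2.

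A few cells stood apart. Piwil1, a pachytene gene, had 3 or more UMIs in 1 spermatogonium of each library, with 3 in a WT cell of 26475 UMIs, 6 in a KO cell of 31972 UMIs and 61 in a KI cell of 88921 UMIs. The KI cell was the only member that the doublet caller Scrublet marked, among 11 KI barcodes, 1 KO and 108 WT. Another KO cell, of 34852 UMIs, also ranked among the highest doublet scores. One KI spermatogonium shared its barcode with a kept WT barcode, and no barcode was a spermatogonium in more than 1 library. Where a 2-fold call of a named gene ended without the cells of 3 or more Piwil1 UMIs, without the members that met the early prophase conditions or without the highest doublet scores (2 KO cells and 1 KI cell), the value without them is given.

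Ddx25 itself was low in spermatogonia. It lies at chr9:35536647-35558528 on GRCm38. WT spermatogonia held 10 UMIs in 8 cells (42.4 CPM, 20.3 to 78.0), KI spermatogonia 15 UMIs in 10 cells (22.8 CPM, 12.8 to 37.7) and KO spermatogonia none. No UMI in KO allows up to 5.77 CPM (3 counts), and the WT value was 7.35-fold and the KI value 3.96-fold that limit. Counting error in WT and KI is not included in these folds. Pachytene cells gave the firmer check of the labels, with 212 CPM (WT), 0.480 (KO) and 92.6 (KI). The KI values count reads placed on the mouse gene, and transcripts of the human transgene are counted here only so far as they aligned to it.

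Spermatogonia were not of 1 kind. With limits set after the cells had been seen, 8 cells were rich in Zbtb16 (at least 3 UMIs and 0.02%), 27 cells also met the early prophase conditions, and 63 remained. The Zbtb16-rich cells were 2 of the WT, 4 of the KO and 2 of the KI cells. Zbtb16 stood at 429 CPM in them by choice, and they also held 534 CPM of Glis3, a gene of the stem and progenitor state, against 20.2 in the remaining cells and 2.86 in cells with the early prophase conditions. By library Glis3 in Zbtb16-rich cells stood at 1568 (WT), 577 (KO) and 166 CPM (KI), each above the remaining cells of its library. Lin28a, of the same state, was not ordered alike in each library, with 409, 132 and 62.1 CPM in Zbtb16-rich and 54.4, 11.7 and 104 CPM in the remaining cells, and the KI value rests on 3 UMIs. In the stem and progenitor list Tex14 was the most abundant gene over all spermatogonia. Genes of that list together had 2840 CPM in Zbtb16-rich cells, 1486 in cells with the prophase conditions and 1198 in the remaining cells. Ribosomal protein genes were also highest in Zbtb16-rich cells, at 134811 CPM against 104307 in the remaining cells and 79387 in cells with the prophase conditions.

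Cells with the early prophase conditions also held more of meiotic genes that had not been used to pick them. Meioc, needed to keep germ cells in the meiotic programme, had 616 CPM in them, 258 in the remaining and 32.4 in Zbtb16-rich cells. Prdm9, the methyltransferase that marks recombination sites, had 255 CPM against 43.6 in the remaining cells and none in Zbtb16-rich cells. Pbx3, a homeobox gene, stood at 1343 CPM against 67.0 and 8.09. Gate genes are given as a description only, since a cell low in some of them had to pass by the others. Stra8 had 870 CPM in these cells and 220.3 in the remaining cells, and was highest in these cells in each library (942, 757 and 1042 CPM). In Zbtb16-rich cells the WT library gave 0 Stra8 UMIs, KO 2 and KI 16, all 16 in 1 cell. Dmrt1 had 100.2 CPM in cells with the prophase conditions, 329 in the remaining and 324 in Zbtb16-rich cells, and Uchl1 77.3, 454 and 753 in the same order. Replication-dependent histone genes, taken by name, had 2665 CPM in these cells, 930.1 in the remaining and 339.8 in Zbtb16-rich cells. Hist1h2aa was the most abundant gene of this list on the mean of the 3 libraries, over all spermatogonia. Whether each gene taken by name depends on replication was not examined. Mki67, a proliferation marker, had 97.1 CPM in Zbtb16-rich cells, on 12 UMIs, against 329 in cells with the prophase conditions and 295 in the remaining cells. In WT, where cells with the prophase conditions held 1 Mki67 UMI, that order did not hold.

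The make-up was then set out by library. Of the WT spermatogonia 3 of 27 met the early prophase conditions (11.1%, 2.35 to 29.2), of KO 17 of 44 (38.6%, 24.4 to 54.5) and of KI 7 of 27 (25.9%, 11.1 to 46.3). With each cell thinned to 4000 UMIs, at least 10 UMIs of the 5 prophase genes were held by 4 of 26 WT, 16 of 41 KO and 7 of 27 KI spermatogonia. The share was highest in KO both ways, and the intervals of the 3 libraries overlapped both ways. These shares are a description, since the gate let cells in by Stra8, which thinning does not undo. In a gate without Stra8, given below, 0 of 23 WT, 7 of 31 KO and 2 of 22 KI cells met the conditions.

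**Figure D1:**
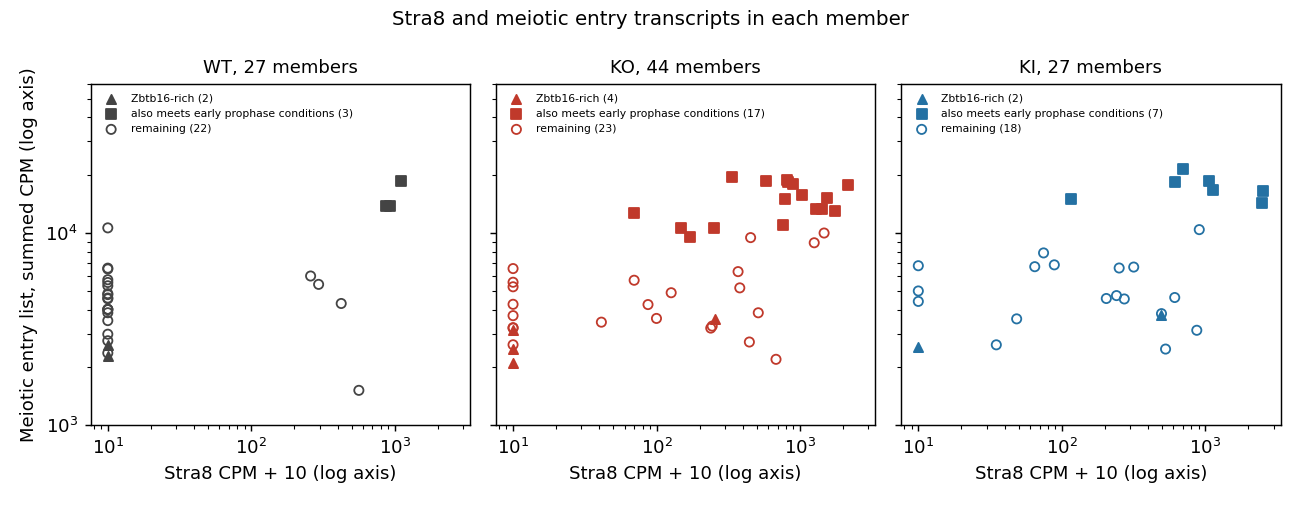
Each point is 1 spermatogonium, with 1 panel per library. The horizontal axis is Stra8 in CPM with 10 added and the vertical axis the sum of the 26 meiotic entry genes in CPM, both on log scales. Triangles mark Zbtb16-rich cells, filled squares cells that also meet the early prophase conditions (3 in WT, 17 in KO, 7 in KI) and open circles the remaining cells. Most WT points stand at the left edge with no Stra8 UMI (20 of 27), against 11 of 44 in KO and 4 of 27 in KI.

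Stra8 showed the clearest difference in the gate. WT spermatogonia held 31 Stra8 UMIs in 7 of 27 cells, KO 248 in 33 of 44 and KI 250 in 23 of 27. These were 131 CPM in WT (89.3 to 187), 477 in KO (419.5 to 540.3) and 381 in KI (335 to 431). On the log2 scale with 1 CPM added, KO lay 1.85 (1.32 to 2.45) and KI 1.53 (0.99 to 2.12) above WT, both differences taken from the same WT library. WT was low and KO and KI were high, as a description, since Stra8 was part of the rule, and 3 WT, 11 KO and 4 KI cells reached 4 marker UMIs by Stra8 alone. A gate on the other 5 markers was therefore tried after the data had been seen, and it does not use Stra8. It kept 23 WT, 31 KO and 22 KI cells, of which 3, 20 and 18 held Stra8. Stra8 then stood at 52.7 CPM in WT (26.3 to 94.3), 442 in KO (379.9 to 512) and 224 in KI (186 to 266), at log2 differences of 3.05 and 2.06. These cells still held 0 WT, 7 KO and 2 KI cells with the early prophase conditions, and 3 KO cells of 51, 35 and 34 Stra8 UMIs carried 120 of the 179 KO UMIs. Without the cells of the early prophase conditions and of the highest doublet scores, 28 UMIs in 11 of 22 KO cells and 111 in 15 of 19 KI cells remained, against 11 in 3 of 23 WT cells. The differences were then 1.21 (0.18 to 2.38) in KO and 2.23 (1.36 to 3.30) in KI.

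Depth and cell make-up moved together with Stra8 and were looked at one at a time. The values of spermatogonia in this paragraph use the gate with Stra8, so they are a description. No thinned share is given for the gate without it. Thinned to 4000 UMIs per cell, Stra8 was seen in 26.9% of WT spermatogonia (11.6 to 47.8), 56.1% in KO (39.7 to 71.5) and 59.3% in KI (38.8 to 77.6), against 25.9%, 75% and 85.2% without thinning. Pachytene cells, which should lack Stra8, showed a UMI of it in 0 of 314 thinned WT, 0 of 449 KO and 0 of 203 KI cells, which allows a share of cells with a UMI of up to 0.955%, 0.668% and 1.48% (3 counts), at median depths of 30101.5, 34384 and 75723 UMIs before thinning. Without thinning 2 of the 203 KI pachytene cells held one. Without the cells that met the early prophase conditions Stra8 stood at 60.0, 297 and 223 CPM. The log2 differences from WT were then 2.29 for KO and 1.87 for KI. Of the 94 KO UMIs left, 51 lay in the KO cell of 34852 UMIs, and without the highest doublet scores as well KO stood at 168 CPM (121 to 228), a difference of 1.47 (0.56 to 2.51), and KI at 2.05 (1.24 to 3.02).

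The other gate genes are a description too, since cells that passed by Stra8 alone, 11 of them in KO, could be low in them. Dmrt1 had 373 CPM (WT), 209.7 (KO) and 285 (KI). Kit had 174, 96.2 and 166 CPM, and Zbtb16 123, 67.3 and 68.5. None of these passed 2-fold, at log2 differences from WT of -0.83 and -0.39 for Dmrt1, -0.85 and -0.07 for Kit and -0.86 and -0.83 for Zbtb16 in KO and KI. Uchl1 had 360.4, 283 and 479.6 CPM, Crabp1 191, 142 and 204 and Dazl 1068, 993 and 1148. With each gene in turn left out of the gate, Dmrt1 had 382, 211 and 295 CPM, Kit 159, 96.2 and 166 and Zbtb16 121, 67.3 and 68.5, in gates that still let cells pass by Stra8. After thinning Kit was seen in 26.9% of WT, 26.8% of KO and 48.1% of KI spermatogonia, and the 3 intervals overlapped. Kit and Stra8 were found together in 5 WT, 21 KO and 18 KI cells without thinning.

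**Figure D2:**
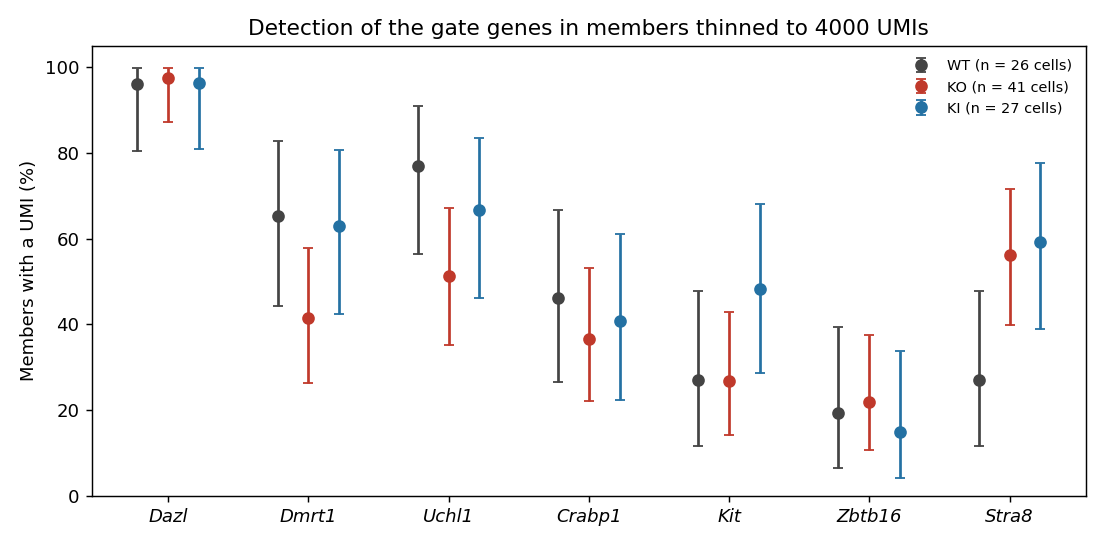
The share of spermatogonia with at least 1 UMI of Dazl and of each of the 6 marker genes, in percent, after each cell was thinned to 4000 UMIs (26 WT, 41 KO and 27 KI cells). Bars are exact 95% intervals for counting error. All of these genes were part of the rule, so the shares are a description. For Stra8 the KO and KI points (56.1% and 59.3%) lie above WT (26.9%), with intervals that overlap that of WT, and for the other genes the intervals of the 3 libraries overlap as well.

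Mitochondrial genes aside, the most abundant genes of spermatogonia were not used by the gate. Of the 10 most abundant genes that are not mitochondrial, 8 encode ribosomal proteins, led by Rps24 (2697, 3482 and 3231 CPM) and Rpl13 (3048, 2695 and 3215 CPM). The other 2 were the histone gene H3f3b, at 2493, 2324 and 2078 CPM, and Auts2, a gene of Polycomb-linked transcription, at 2747, 1874 and 2128 CPM. Auts2 stood at 337, 393 and 525 CPM in early prophase and at 3.92 to 4.86 CPM in pachytene cells. Genes highest over early prophase cells are a description too, since cells that pass the gate are kept out of the early prophase class, and the gate genes Kit, Dmrt1 and Crabp1 were among them. The others were Med12l, Hnf4aos, Arhgdig, Mtss1, Rftn1, Tmtc2 and Lmo1. Med12l, a Mediator subunit gene, had 93.3, 65.4 and 68.5 CPM in spermatogonia. Lmo1, a LIM-domain transcription cofactor, had 42.4, 44.2 and 91.3 CPM. Med12l, Hnf4aos, Arhgdig, Rftn1, Tmtc2 and Lmo1 had no UMI in early prophase cells of any library, which allows up to 7.12, 4.04 and 5.13 CPM. Hnf4aos, a non-coding transcript, was held by few cells (7 WT, 2 KO and 6 KI).

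The X chromosome was active in spermatogonia of every genotype. X-linked genes took 2.12% of nuclear-gene UMIs in WT (2.06 to 2.18), 2.18% in KO (2.14 to 2.22) and 2.17% in KI (2.14 to 2.21), and the 3 intervals overlapped. In early prophase cells the shares were 1.31%, 1.43% and 1.68%, and in pachytene cells 0.0501%, 0.0522% and 0.0384%. Single WT spermatogonia had X shares of 1.04% to 2.90%, single KO cells 0.551% to 3.20% and single KI cells 1.31% to 3.13%. Among 22 X-linked germ cell genes, summing to 2540 CPM (WT), 2895 (KO) and 2631 (KI), Nxf2, an RNA export factor gene, had 119, 240.4 and 159.9 CPM, and the homeobox gene Rhox13 89.0, 138 and 114 CPM. The same 22 genes summed to 59.9, 50.5 and 26.9 CPM in pachytene cells. The Y-linked list summed to 505, 485 and 516 CPM in spermatogonia and to 5.26, 6.06 and 2.42 CPM in pachytene cells. Over all 4830 genes compared below, 4.24% were at least 2-fold higher and 4.43% lower in KO. On the X list Nxf2 was the only member of 13 measured past 2-fold (1.01 in KO). On the Y list the demethylase gene Uty was the only member of 4 (63.6, 28.9 and 62.4 CPM, -1.11 in KO). Both calls ended without the cells of 3 or more Piwil1 UMIs, at 0.95 for Nxf2 and -0.99 for Uty, and without the highest doublet scores, at 0.96 and -0.92. The medians of the X list were 0.27 and 0.20 and of the Y list -0.24 and -0.08, and without members of the early prophase conditions the sum of the X list turned from 0.19 to -0.07 in KO.

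**Figure D3:**
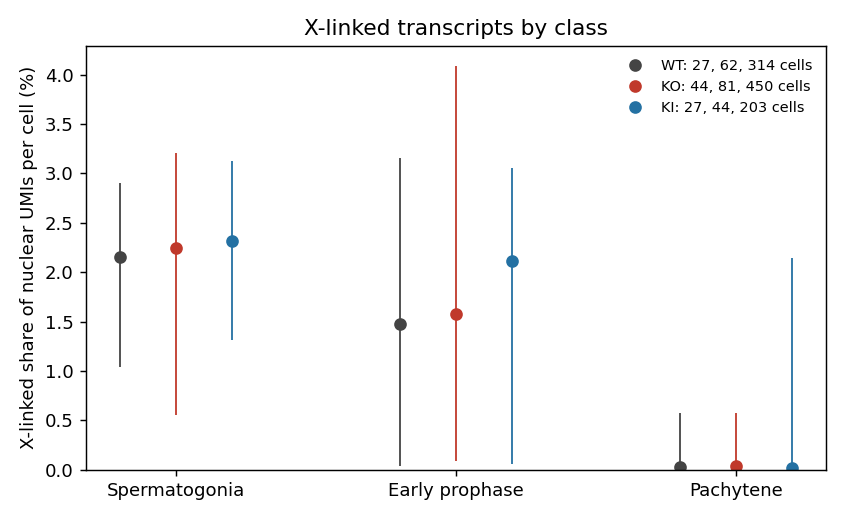
The share of nuclear-gene UMIs from the X chromosome, in percent, for spermatogonia, early prophase and pachytene cells of each library. Points are the median cell and lines run from the lowest to the highest cell. Median spermatogonia lie at 2.16% in WT, 2.24% in KO and 2.31% in KI, and median pachytene cells at under 0.0345% in each library.

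Genotypes were then compared over the 4830 genes with a mean of at least 50 CPM in spermatogonia. With 1 library a group, a gene was called by size alone, at a 2-fold ratio of CPM with 1 CPM added. In KO against WT 205 genes (4.24%) were higher and 214 (4.43%) lower, 8.67% in either direction, and in KI against WT 90 (1.86%) were higher and 100 (2.07%) lower, 3.93% in either direction. In KI against KO 63 (1.3%) were higher and 132 (2.73%) lower. The median log2 difference over all genes was -0.07 for KO and -0.02 for KI against WT. Scaling by TMM factors adds 0.12 to every KO and 0.14 to every KI difference, and turned the split to 275 higher and 141 lower in KO and to 143 and 65 in KI. Most called genes were low, with 130 of the 205 and 168 of the 214 in KO under 100 CPM. In KI 16 of the 90 higher genes had over 50% of their KI UMIs in 1 cell. KO and KI share the WT library, so their differences from WT are given side by side and not counted together.

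**Figure D4:**
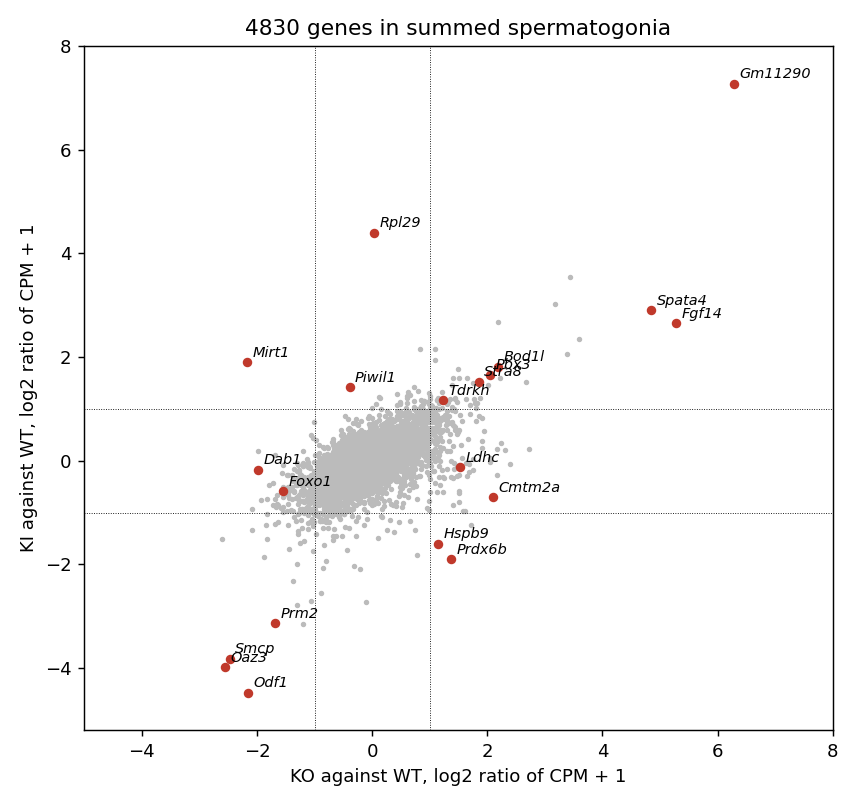
Each point is 1 of 4830 genes, by its log2 ratio of KO against WT (horizontal) and of KI against WT (vertical) in spermatogonia, on CPM with 1 added. Both axes share the WT library, which by itself spreads points along the diagonal. Dotted lines mark 2-fold. In red are 20 genes picked by hand from the larger number named by rule, from Odf1 (-2.15 and -4.48) to Gm11290 (6.28 and 7.27).

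Genes lower in both mutants were led by transcripts of late spermatids. Smcp, a sperm mitochondrial sheath gene, had 314 CPM in WT spermatogonia, 55.8 in KO and 21.3 in KI, at log2 differences of -2.47 (-3.16 to -1.85) and -3.82 (-4.82 to -3.04). Oaz3, an antizyme gene of spermatids, had 208, 34.6 and 12.2 CPM, Odf1 of the outer dense fibres 123, 26.9 and 4.57, and the protamine gene Prm2 674, 209.7 and 76.1. A single WT cell held 33 of the 74 Smcp UMIs. Prm1, Prm2, Tnp1 and Tnp2 were capped by the rule, so their levels are a description. The 6 elongating spermatid markers that the rule did not use summed to 899 CPM (WT), 202 (KO) and 65.5 (KI), and all 4 of them that were measured were lower in both mutants, against 4.43% and 2.07% of all genes. All 10 markers together had 2557, 1021 and 338 CPM. They were ordered the same way in pachytene cells (1009.5, 442 and 163 CPM). Droplets of over 100 and up to 500 UMIs, under the limit for a kept barcode, held 47765, 16932 and 21502 CPM of these markers. With the profile of those droplets subtracted the list stood at 982, 70.5 and 33.9 CPM, but the subtraction was scaled on Prm1, Prm2, Tnp1 and Tnp2 themselves, so nothing is read from what it left.

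Other genes in that group were not on the spermatid marker lists used here. Whether spermatid transcripts had a part in their levels was not tested. Wars2, a mitochondrial tryptophanyl-tRNA synthetase, had 97.5 CPM (WT), 26.9 (KO) and 33.5 (KI), at differences of -1.82 and -1.51. Tbcel, a tubulin cofactor-like gene, had 93.3, 21.2 and 36.5 CPM. Akap12, a scaffold of protein kinase A, had 157, 59.6 and 30.5 CPM, at -1.38 and -2.33. Pdzrn3, a ubiquitin ligase gene, had 106, 38.5 and 32.0 CPM, with 13 of its 25 WT UMIs in 1 cell. Zfpm2 (110.2, 17.3 and 38.1 CPM) rested on few WT cells, with 18 of 26 UMIs in 1 cell. Without the cells that held 3 or more Piwil1 UMIs the Zfpm2 difference was -1.01 in KO and -0.19 in KI.

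Of the genes higher in both mutants, Pbx3, Bod1l and Gm11290 were each spread over 11 or more cells of KO and of KI. Pbx3 had 28 UMIs in 6 WT cells, 258 in 26 KO cells and 247 in 13 KI cells, that is 119, 496 and 376 CPM, at differences of 2.05 (1.50 to 2.68) and 1.66 (1.10 to 2.28). Bod1l, a gene of replication fork protection, had 29.7, 139 and 107 CPM, at 2.18 (1.11 to 3.59) and 1.81 (0.73 to 3.21). Gm11290, a long intergenic non-coding RNA at chr13:22014468-22020738, had no UMI in WT, 40 in 14 KO cells and 101 in 11 KI cells. The KO value was 6.05-fold and the KI value 12.1-fold the 12.7 CPM that no UMI allows in WT (3 counts). Counting error in KO and KI is not included. Pbx3 and Bod1l were also genes of early prophase cells, at 465, 539 and 671 CPM for Pbx3 and 237, 265 and 378 for Bod1l. Without the members that met the early prophase conditions Pbx3 had 13.8, 126 and 39.6 CPM, and the differences were 3.10 and 1.45. In early prophase cells Gm11290 was present in WT, at 35.6 CPM against 22.9 in KO and 51.4 in KI.

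The other genes of that group were high in pachytene cells, and several rested on single deep spermatogonia. Magi2, a scaffold gene with 1723 to 1918 CPM in pachytene cells, had 12.7, 148 and 158 CPM in spermatogonia, with 58 of 77 KO and 97 of 104 KI UMIs in 1 cell each. Fgf14 had 4.24, 202 and 32.0 CPM, with 100 of 105 KO UMIs in 1 cell and all 21 KI UMIs in 1 KI cell. Without the cells of 3 or more Piwil1 UMIs the KI differences were 0.34 for Magi2, 0.13 for Spata16, -0.02 for the glucose transporter gene Slc2a3, and 0.52 for Fbp1, and that of Spata4 was 1.54, against 2.90 with those cells. In KO Spata4 was at 4.22 without them. Fgf14 had no KI UMI without them, and no UMI in either mutant without the highest doublet scores, against 1 in WT, so that no fold is given. Ctnna3 too had at most 3 UMIs left in WT and in KI. Spata4 in KO was seen in 28 of 44 spermatogonia, with 26 of 78 UMIs in 1 cell, against 1 UMI in WT, and its KO difference of 4.85 had an interval of 2.62 to 10.47.

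Rpl29, a gene of the large ribosomal subunit at chr9:106429454-106431568, set KI spermatogonia apart from both others. It had 8 UMIs in 6 WT cells, 18 in 13 KO cells and 483 in all 27 KI cells, that is 33.9 CPM (14.6 to 66.8), 34.6 (20.5 to 54.7) and 735 (671 to 804). The KI difference from WT was 4.40 (3.45 to 5.66). Rpl29 ranked 82 in WT, 81 in KO and 60 in KI among the 83 ribosomal protein genes, whose median was 1111, 1145 and 1261 CPM. The difference was also present in early prophase cells (52.2, 31.0 and 569.9 CPM), in pachytene cells (53.9, 48.4 and 795 CPM) and in droplets of over 100 and up to 500 UMIs (66.2, 66.2 and 523 CPM) of the KI library, and was not particular to spermatogonia. Of 2613 genes measured in all 3 cell types Rpl29 was the only gene at least 2-fold higher in KI in each. Rpl29 has near-identical processed copies, and how reads were shared among them is not given in the sources used here.

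Further genes separated KI from KO. Prdx6b, Mesp1, Cmtm2a and Hspb9 were lower in KI, with Hspb9, a testis heat shock gene, at 178, 394 and 57.9 CPM, and Cmtm2a at 55.1, 239 and 33.5. All 4 were high in pachytene cells, where none differed by 2-fold between libraries (1883, 1861 and 1673 CPM for Hspb9 and 1098, 1100 and 1021 for Cmtm2a). In spermatogonia the pachytene marker list had 1946 CPM (WT), 2931 (KO) and 1833 (KI), and the round spermatid list 119, 289 and 79.2, so that KO was highest in both, and their part in these 4 genes was not tested. Against WT, Prdx6b, Mesp1 and Hspb9 were past 2-fold in KO (1.38, 1.71 and 1.14) but not without the cells of 3 or more Piwil1 UMIs (0.87, 0.93 and 0.56), and Mesp1 in KI went from -1.25 to -0.83 without members of the early prophase conditions. Mirt1, Piwil1, Hnf4aos and Dab1 were higher in KI than KO, but 93 of 95 Mirt1 and 61 of 68 Piwil1 UMIs lay in 1 KI cell each. Dab1, an adaptor of reelin signalling, was spread over more cells, at 102 CPM in 9 WT cells, 25.01 in 8 KO cells and 89.8 in 14 KI cells.

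Gene groups were described by their summed level, by the number of measured members past 2-fold and by the median difference (KO, then KI), beside -0.07 (KO) and -0.02 (KI) over all genes. Only members with a mean of at least 50 CPM were counted, and each count is read beside the share of all 4830 genes past 2-fold, 4.24% higher and 4.43% lower in KO and 1.86% and 2.07% in KI.

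Stem and progenitor genes summed to 1679, 1381 and 1343 CPM, and of 29 listed only 6 were measured at 50 CPM. Of the 6, 2 were lower in KO and 2 in KI, none was higher, and medians were -0.33 and -0.46. Tex14 was the most abundant gene of the list and made up much of its sum. Without the cells of 3 or more Piwil1 UMIs Tex14 had 917, 736 and 764 CPM, and the list 1729, 1416 and 1419 CPM. Foxo1, a factor of stem cell maintenance, had 169.6, 57.7 and 113 CPM (-1.54 in KO), and Lin28a 72.1, 30.8 and 82.2 (-1.20 in KO). Glis3 had 106, 98.1 and 15.2 CPM (-2.72 in KI) but was held by only 3 WT, 7 KO and 3 KI cells. Sdc4, a syndecan, had 89.0, 73.1 and 32.0 CPM in 4, 7 and 5 cells. Genes of the most primitive stem cells were scarce. Gfra1 had 2, 13 and 0 UMIs, 10 of the 13 in 1 KO cell, Id4 2, 11 and 12, Etv5 3, 3 and 1, and Nanos2 none.

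Genes of differentiating spermatogonia summed to nearly the same level in each library, at 1174 CPM (WT), 1112 (KO) and 1204 (KI). Of 8 measured, 2 were lower in KO and 1 was higher in KI. Dnmt3b, a de novo DNA methyltransferase, had 84.8, 34.6 and 74.6 CPM (-1.27 in KO), and Tcf3, an E protein, 139.9, 55.8 and 104 (-1.31 in KO). Without members of the early prophase conditions Dnmt3b was at -0.95. Lmo1 was the member higher in KI (1.09), and medians were -0.15 and -0.10. Ccnd1, a G1 cyclin, had 161, 92.3 and 159.9 CPM and did not pass.

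Meiotic entry genes had a higher sum in both mutants than in WT. The 26 genes summed to 5944, 8379 and 7569 CPM, at 0.50 (0.41 to 0.58) and 0.35 (0.26 to 0.44). Of 21 measured, 3 were at least 2-fold higher in KO and 1 in KI, none was lower, and the medians were 0.51 and 0.38. 4930447C04Rik (Six6os1), a synaptonemal complex gene, had 237, 477 and 481 CPM (2-fold in KO and 1.02 in KI), Prdm9 50.9, 113 and 89.8 (1.14 and 0.81) and Ugt8a 59.4, 127 and 104 (1.08 and 0.79). Without the members that met the early prophase conditions all these calls ended, at 0.52 and 0.81 for 4930447C04Rik, 0.32 for Prdm9 in KO and -0.0050 for Ugt8a in KO. Sycp1, of the central region of the complex, was alike at 950, 954 and 988 CPM. Without the members that met the early prophase conditions Sycp1 had 900, 566 and 826 CPM, at -0.67 in KO and -0.12 in KI. Sycp1 and the other genes of those conditions are all on this list. Leaving out members picked by these genes lowers Sycp1 and the sum by choice, so both are a description. Rec8, the meiotic cohesin that retinoic acid switches on beside Stra8, had only 3, 22 and 20 UMIs, and Rad21l 1, 26 and 17. Without the members that met the early prophase conditions the sum of the 26 genes differed from WT by -0.09 in KO and 0.03 in KI. That setting kept the WT cell of 26475 UMIs, whose 3 Piwil1 UMIs were over the limit of those conditions. This cell held 10652 CPM of the list. With the cells of 3 or more Piwil1 UMIs left out instead, the sums were 5349, 8703 and 7684 CPM, at 0.70 in KO and 0.52 in KI.

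Cell cycle genes were near the background. S phase genes summed to 3634, 3443 and 3202 CPM, with 1 of 22 measured higher and 1 lower in KO and 1 lower in KI and medians of -0.15 and -0.26. Ccne2, a cyclin of S phase entry, had 59.4, 159.7 and 95.9 CPM (1.41 in KO) and Uhrf1, which brings Dnmt1 to replicated DNA, 136, 57.7 and 79.2 (-1.22 in KO). Fen1, a flap endonuclease, was lower in KI (102, 57.7 and 45.7 CPM, -1.14, and -0.98 without members of the early prophase conditions or without the highest doublet scores). G2 and M phase genes summed to 7793, 7186 and 7942 CPM, and all 30 were measured, with medians of -0.16 and -0.05. Aurkb, a kinase of chromosome segregation, was lower in KO (80.6, 32.7 and 47.2 CPM, -1.28) and Cdk1 in KI (139.9, 82.7 and 60.9 CPM, -1.19). Aurkb was at -0.97 without members of the early prophase conditions, and Cdk1 at -0.83 without the cells of 3 or more Piwil1 UMIs. Mki67 had 203, 246 and 347 CPM.

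The 12 DNA methylation genes summed to 1671, 1296 and 1550 CPM, with 2 of 7 measured lower in KO (Uhrf1 and Dnmt3b) and none in KI, and with medians of -0.56 and -0.18. None of the 7 was above WT in KO. The 22 piRNA and germ granule genes summed to 2688, 2545 and 2667 CPM, with 2 of 16 measured higher (Tdrkh and Gtsf1) and 1 lower (Tdrd9) in KO, and 2 higher in KI (Tdrkh and Piwil1), and medians were -0.11 and 0.14. The Piwil1 call rests on the 1 KI cell of 61 UMIs, and without the highest doublet scores Piwil1 turned from 1.42 to -1.56 in KI. Tdrkh, a Tudor-domain partner of PIWI proteins, was higher in both, at 72.1, 171 and 163 CPM (1.24 and 1.17), seen in 12 WT, 33 KO and 27 KI cells. Its annotation (chr3:94413273-94434668) overlaps that of Oaz3 (chr3:94432414-94443915), and how reads of the shared stretch were counted was not examined. Gtsf1, a gametocyte zinc-finger gene, had 76.3, 173 and 105 CPM (1.17 in KO, and 0.97 without the highest doublet scores). Tdrd9 in KO went from -1.09 to -0.95 without members of the early prophase conditions. Ddx4, the germ cell helicase Vasa, was alike at 331, 294 and 332 CPM. Of 17 retinoic acid pathway genes only Aldh1a2, which makes retinoic acid, was measured, at 33.9, 84.6 and 57.9 CPM (1.29 and 0.75), and without members of the early prophase conditions its KO difference was 0.72.

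Among groups of general cell function few genes passed 2-fold. Ribosomal protein genes summed to 96661 CPM (WT), 97603 (KO) and 104846 (KI), and of 80 measured only Rpl29 passed, with medians of 0.01 and 0.14. Nucleolar genes, led by Ncl (1403, 1435 and 1515 CPM), summed to 5609, 5598 and 5898 CPM, with 2 of 20 lower in KO, Polr1a of RNA polymerase I (102, 44.2 and 67.0 CPM) and the helicase gene Ddx18 (153, 73.1 and 117 CPM), and none past 2-fold in KI, and medians of -0.30 and -0.07. Ddx18 was under 2-fold without each of the 3 sets of doubted cells (-0.82 to -0.93). Mitochondrially encoded genes summed to 41504, 49985 and 57135 CPM, at 0.27 and 0.46, with none of 12 past 2-fold and medians of 0.36 and 0.46. The share of mitochondrial UMIs was capped in every kept barcode, so the levels and the count of this list are a description. Stress and apoptosis genes had medians of 0.18 and 0.17 and 1 of 7 higher in KO, Dnajc3 of the endoplasmic reticulum (80.6, 179 and 122 CPM, 1.14). Without members of the early prophase conditions Dnajc3 was at 0.58 and the sum of the list turned from 0.20 to -0.15 in KO. In KI that sum turned from 0.11 to -0.10. Germ cell RNA-binding genes had medians of -0.17 and -0.06 and 1 of 21 higher in KO, Ybx3 (161, 475 and 274 CPM), with 90 KO and 105 KI UMIs in 1 cell each. Without the cells of 3 or more Piwil1 UMIs Ybx3 was at 0.98 in KO and -0.30 in KI. The glycolysis list summed to 1620, 2543 and 1280 CPM, with 3 of 9 measured higher in KO (Ldhc, Ldha and Pgam2) and 2 lower in KI and medians of -0.04 and -0.29. Its sum lay at 0.65 in KO and -0.34 in KI, and at 0.28 and -0.79 without the cells of 3 or more Piwil1 UMIs. It was led by Ldhc, the germ cell lactate dehydrogenase, at 403, 1168 and 369.9 CPM, with 210 of 607 KO and 159 of 243 KI UMIs in the cells of 3 or more Piwil1 UMIs. Without these cells Ldhc had 425, 814 and 148 CPM, at 0.94 in KO, under 2-fold, and -1.52 in KI. Droplets of over 100 and up to 500 UMIs held 10739, 11107 and 11192 CPM of the list. With their profile subtracted (3.91%, 5.83% and 1.5% of the UMIs of spermatogonia, scaled on the spermatid genes) Ldhc had 138, 791 and 265 CPM, at 2.51 in KO and, turned from -0.12, at 0.93 in KI. Ldhc had 7039 to 7358 CPM in pachytene cells. Gpi1, of upper glycolysis, was lower in KI (199, 163 and 88.3 CPM, -1.17), as was Hk1 (80.6, 50.01 and 27.4 CPM, -1.52), and without members of the early prophase conditions Gpi1 lay just under 2-fold. Of 67 histone genes taken by name as replication-dependent, which summed to 1336, 1529 and 1122 CPM, only 5 were measured, with medians of 0.71 and 0.10. Without members of the early prophase conditions the sum turned from 0.20 to -0.20 in KO and went from -0.25 to -0.92 in KI, and with equal weight of cells it turned to 0.14 in KI. The linker histone gene Hist1h1e was higher in both (25.4, 84.6 and 54.8 CPM, 1.70 and 1.08) and Hist1h2ap lower in KI (284, 159.7 and 91.3 CPM, -1.63). Without members of the early prophase conditions Hist1h1e was at 0.91 in KO and turned to -0.76 in KI.

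**Figure D5:**
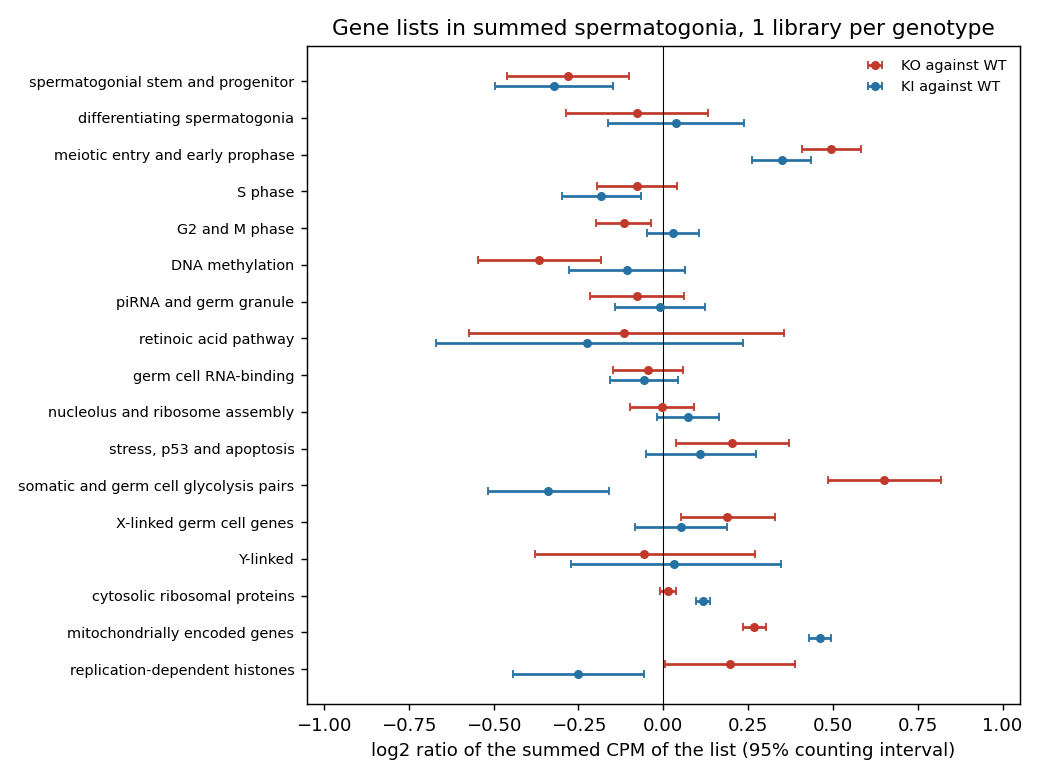
Summed level of 17 gene groups in spermatogonia as the log2 ratio of KO (red) and KI (blue) against WT, with 95% counting intervals. Meiotic entry genes lie above 0 in both (0.50 and 0.35), and stem and progenitor genes, led by Tex14, below 0 in both (-0.28 and -0.32). The glycolysis list lies on opposite sides (0.65 and -0.34, and 0.28 and -0.79 without the cells of 3 or more Piwil1 UMIs). The scale is unadjusted, and TMM factors would move KO points by 0.12 and KI points by 0.14.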

How the data were processed

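Testis cells of 3 mouse libraries (1 each of WT, KO and KI) were profiled with 10x single-cell 3′ chemistry. The authors aligned the reads to mm10 and deposited raw UMI counts per gene and barcode, unnormalized and unfiltered. The submitters' notes name Cell Ranger 2.1.1 and the file headers Cell Ranger 4. Counts totalled 82973909 (WT), 91388296 (KO) and 73150373 (KI). Spermatogonia were gated by marker UMIs, their counts summed per library and scaled to CPM, and genes with a mean of at least 50 CPM compared as log2 ratios with 1 CPM added, a ratio of 2-fold or more being called. Members and gene lists were chosen with earlier results of these data known. Named are the gate genes, Ddx25, the 10 most abundant genes, the 10 highest and 10 lowest by the smaller of the KO and KI ratios, the 5 highest and 5 lowest of KI against KO, the 10 highest over early prophase cells, and list members that were abundant or most changed, together with the few others named beside a count after their values were seen. One gene that this rule picks is not reported here. No p-values were computed. Doublets were left in, and Scrublet and its highest scores were used as alternatives. Thinning was to 4000 UMIs. Barcodes of 10 to 100 UMIs were often cells of another library (42.4% to 52.2% held 1000 or more UMIs there), so a profile of barcodes with over 100 and up to 500 UMIs was added after the data had been seen. The gate without Stra8, the subsets, and leaving out cells by Piwil1 or by the early prophase conditions were added likewise. Gene positions are GENCODE M21 on GRCm38. The scripts were tested on simulated data and used scanpy 1.11.5 for Scrublet, pandas 2.3.3, scipy 1.17.1 and numpy 2.4.6 under Python 3.11.15, with figures by matplotlib 3.10.9.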

Additional observations from a re-analysis of the deposited data

How the results depend on the processing

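No paired analysis was possible because each genotype had 1 library, and no library could be left out. Counts of genes past 2-fold depended on the filter and the cells. For KO against WT (419) they became 6965 with no filter on low genes, 714 with a mitochondrial limit of 5% (which leaves 24 KO and 8 KI members) and 31 at a mean of 200 CPM or more. For KI against WT (190) they became 6397, 533 and 10 in the same order, 122 with 10 CPM added and 310 with equal weight of cells. For KI against KO (195) they became 6316, 762 and 16, and 328 without members that met the early prophase conditions. The other alternatives kept these counts within 1.5 times. The share of kept barcodes in WT was 0.371% with at least 8 marker UMIs. In KO it was 1.99% with at least 4000 UMIs, 0.536% with at least 1000, 0.766% at a mitochondrial limit of 5%, 0.839% with 8 marker UMIs, 0.755% without members in the early prophase conditions and 0.867% with Stra8 left out of the gate. In KI it was 0.862% with at least 1000 UMIs and 0.694% at the limit of 5%. The X share in KO was 2.26% with the profile of barcodes with over 100 and up to 500 UMIs subtracted and 1.93% without members in the early prophase conditions, and in KI 2.30% with equal weight of cells and 2.09% without those members. Without thinning, Stra8 was seen in 75% of KO and 85.2% of KI cells, and Kit in 77.8%, 54.5% and 77.8% of WT, KO and KI cells. With the highest doublet scores left out, log2 ratios reversed to -0.042 for Magi2 and -0.56 for Slc2a3 in KI against WT, and for Piwil1 to -1.56 in KI against WT and -0.65 in KI against KO. Without members of 3 or more Piwil1 UMIs Slc2a3 reversed to -0.023 in KI against WT. No ratio was taken where both sums were at or under 3 UMIs, as for Fgf14 and Ctnna3, nor for Piwil1 where cells were left out by it. Hist1h1e in KI against WT reversed to -0.76 without members in the early prophase conditions. Apart from the alternatives' own loss of cells or genes, the cause was not tested. The log2 ratio of Stra8 ran from 1.21 to 3.05 in KO and from 1.47 to 2.23 in KI over its alternatives, the gate without Stra8 included. With 27, 44 and 27 cells, a gene near 50 CPM rests on about 12 UMIs in WT.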
